A study of Mus musculus with 6 samples.

Results

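The genes described are 10 genes of the heat shock system, listed by name: the heat shock factors Hsf1 and Hsf2, the inducible Hsp90 gene Hsp90aa1, the Hsp90 co-chaperone genes Ahsa1, Stip1, Fkbp4 and Chordc1, the small heat shock protein genes Hspb1 and Hspb8, and the collagen chaperone gene Serpinh1. Each probe set of the array stands for 1 gene, and 9 of the 10 were found by symbol in the platform annotation, among 25206 probe sets in all. Hsf1 was not analysed here: probe sets were named only through that annotation, which pairs none with its symbol. A probe set under its Entrez gene number is among the deposited values but was left unnamed. Below, measured means named through that annotation. Expression was measured on 6 arrays, 1 for each RNA sample of mouse macrophages that had been derived from bone marrow in culture. There were 3 untreated control samples and 3 samples given JG-98, an inhibitor of the Hsp70 chaperones, for 16 hours. The labels give its dose as 0.3 micromole with no volume, and name neither a vehicle for the controls nor the strain, age and sex of the mice. Nor do they say whether the replicates are separate cultures or animals.

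Hsp70 and Hsp90 are chaperones that pass unfinished proteins from one to the other, with Stip1 as the bridge between them. HSF1 is held inactive by chaperones in unstressed cells, and when unfolded protein occupies those chaperones it binds heat shock elements in the promoters of chaperone genes and raises their transcription. HSF2 is a related factor that can join HSF1 at the same elements. Transcripts of Hsp90aa1, its co-chaperones, the small heat shock proteins and Serpinh1 are textbook targets of this response, so the comparison asks what blocking Hsp70 did to the transcripts of the neighbouring chaperone system.

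The sequence to which these factors bind is shown first, because it is the element through which such genes are known to respond. A heat shock element alternates the units GAA and TTC with 2 bases between units, so that 2 adjacent units read GAANNTTC or TTCNNGAA, each of which is the same on both strands. RefSeq promoter windows of build GRCm38.p6, from 250 bases before to 50 bases after each start, were matched for 8 of the 9 measured genes and searched for these letters on both strands, with overlapping matches counted. Chordc1 had 5 matches of 2 units, and 3 matches of 3 units in a row, Hspb1 had 2 matches of 2 units, and Hspb8 and Fkbp4 had 1 each. Over all 32851 windows of 300 bases, several for some genes, 15.1% held at least 1 match of 2 units and 0.603% a match of 3 units. Below are stretches of 30 bases that hold these matches, except 1 of Chordc1 that lies 33 to 40 bases after the first base of the gene, 5′ to 3′ on the strand of the gene, with the units in capitals. They lie at chr9:18292260-18292289 on the plus strand for Chordc1, chr5:135887801-135887830 on the plus strand for Hspb1, chr6:128438789-128438818 on the minus strand for Fkbp4, and chr5:116422844-116422873 on the minus strand for Hspb8.

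Chordc1: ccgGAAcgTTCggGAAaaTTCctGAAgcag

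Hspb1: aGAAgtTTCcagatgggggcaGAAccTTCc

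Fkbp4: ccgcttctctaGAAagTTCtccgctcccgc

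Hspb8: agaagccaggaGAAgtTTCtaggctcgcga

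The Chordc1 stretch holds an unbroken run of alternating units and spans the start of the gene, from 7 bases before its first base to 22 after. The Hspb1 matches lie 117 to 110 and 97 to 90 bases before the first base, and the Fkbp4 match 151 to 144 bases before it. The Hspb8 match lies 2 to 9 bases after it. In the windows of Hsf2, Ahsa1, Stip1 and Serpinh1 these letters were not found, which says nothing about sites elsewhere or about looser forms of the element. A match is a string of letters, and no binding was measured in these samples.

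Macrophage markers were high on every array. The mean of 10 measured macrophage markers was 10.3 to 10.4 on the log2 scale in the controls and 10.2 to 10.3 with JG-98, against means of 2.58 to 3.91 on any array for the lists of neutrophil, dendritic cell, stromal, endothelial, muscle, B cell, T and NK cell, and erythroid markers. One array, JG-98 replicate 3, stood apart from the others: it had the highest median, 4.24 against 4.08 to 4.15, and the lowest array weight, 0.33 against 0.91 to 2.36. The means of all 8 marker lists for other cell types were also highest on this array. The differences of the 9 genes, and those of some other named genes, are therefore also given without it.

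None of the 9 measured genes passed the test of JG-98 against control. Their log2 differences, JG-98 minus control, lay between -0.24 for Hspb1 and 0.17 for Ahsa1, with a median of 0.04 beside 0.00080 for all probe sets. At a limma adjusted p under 0.05, 0 of 9 passed, beside 0.0397% of all probe sets, and at an unadjusted p under 0.05 also 0 of 9, beside 8.32%. All 3 JG-98 values lay above all 3 control values for 2 of the 9, Ahsa1 and Fkbp4, where 7.12% of all probe sets did so. The smallest adjusted p among the 9 was 0.61, that of Ahsa1. Hsp90aa1, Hspb1, Hspb8 and Serpinh1 had low control means, 4.20, 2.62, 2.63 and 3.79, where background could hide a change. In RNA of whole cultures, a change in the share of cells that make a transcript cannot be told from a change in the amount per cell.

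Without JG-98 replicate 3 the count over all genes was again 0 of 9, beside 0.0198% of all probe sets. At an unadjusted p under 0.05 it was then 2 of 9, Hsf2 and Ahsa1, beside 11.3%. The JG-98 values lay wholly above the controls for 5 of 9, Hsf2, Chordc1, Ahsa1, Stip1 and Fkbp4, beside 13.7% of all probe sets.

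**Figure D1:**
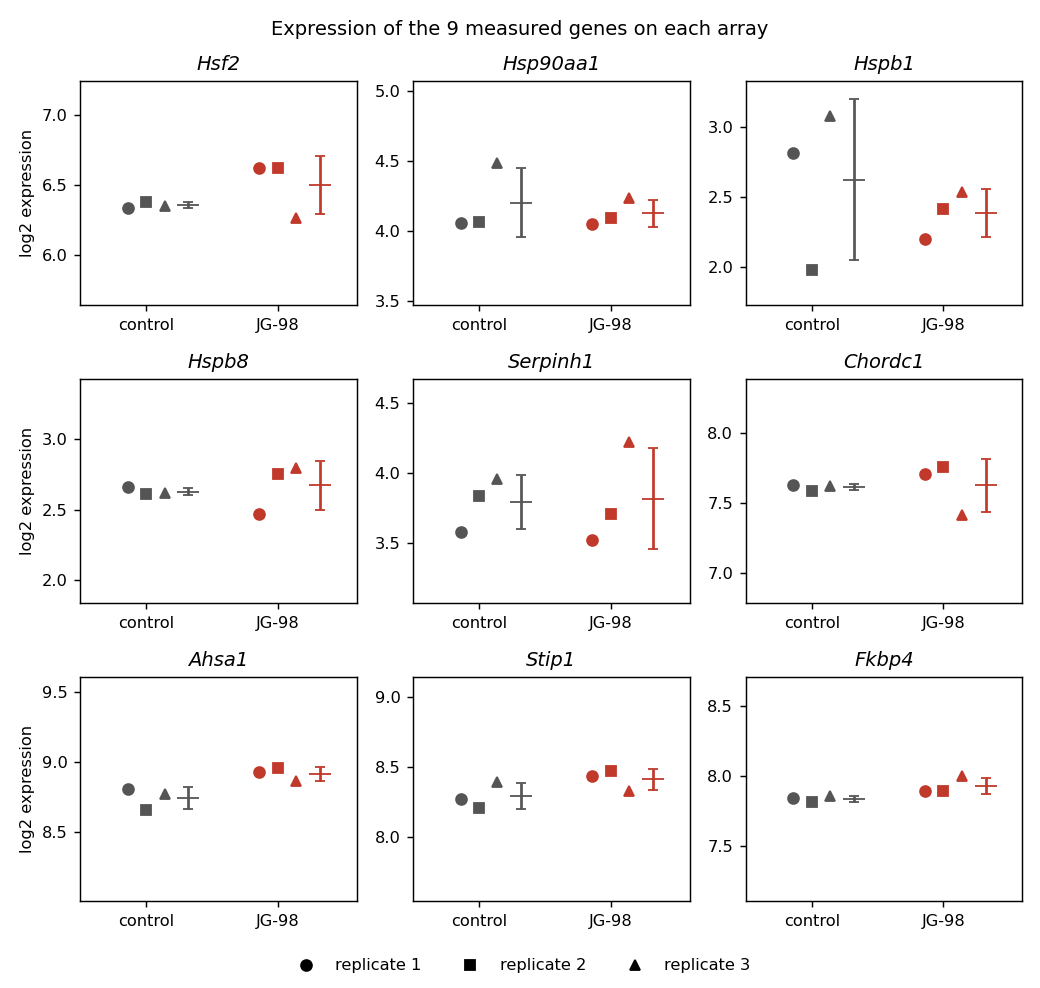
Log2 expression of each measured gene on the 6 arrays, control in grey and JG-98 in red, with a marker shape for each replicate number and the mean ± SD (n = 3) to the right of each group. All panels span the same range of 1.6 log2 units. Ahsa1 and Fkbp4 have every JG-98 value above every control value, and Hsf2 and Chordc1 have 2 JG-98 values above the controls and 1, replicate 3, below them.

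Of the heat shock factors, Hsf2 was measured at 6.33, 6.38 and 6.35 on the log2 scale in the controls and at 6.62, 6.62 and 6.26 with JG-98. JG-98 replicates 1 and 2 were nearly identical and above every control, while replicate 3 was below every control. The difference was 0.14 ± 0.11 (SE, n = 3 per group, limma adjusted p = 0.79). Without JG-98 replicate 3 it was 0.26 ± 0.061, with a 95% interval of 0.11 to 0.42, and it still did not pass over all genes (limma adjusted p = 0.31). Hsbp1, whose product binds the trimer form of HSF1, was at 10.01, 10.04 and 10.02 in the controls and at 10.04, 10.03 and 9.93 with JG-98, with a difference of -0.03 ± 0.065 (0.0098 without JG-98 replicate 3). Hsf4, a factor best known from the lens, differed by 0.08 ± 0.082 (0.03 without that array). Hsf5, best known from the testis, differed by -0.21 ± 0.14, but by -0.05 without control replicate 3. Its group means were low, 3.00 in the controls and 2.79 with JG-98. None of the 5 measured genes of this list passed.

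Hsp90aa1 encodes the stress-inducible cytosolic Hsp90. Its values were 4.06, 4.06 and 4.49 in the controls and 4.05, 4.09 and 4.23 with JG-98. The groups overlapped, and the highest value was that of control replicate 3. The difference was -0.08 ± 0.13 (limma adjusted p = 0.92), with a 95% interval of -0.39 to 0.24, and it was 0.07 without control replicate 3 and -0.13 without JG-98 replicate 3. These values lie close to those of markers of other blood cells: 22 measured markers of neutrophils, B cells, T cells and NK cells had means of 1.72 to 4.07. Background is thus not excluded for this probe set, and related Hsp90 sequences could share its probes. Hsp90b1, the Hsp90 of the endoplasmic reticulum, differed by 0.03 ± 0.068 (0.07 without JG-98 replicate 3). Trap1, the mitochondrial one, differed by 0.11 ± 0.073 (0.06 without control replicate 3). The constitutive cytosolic gene Hsp90ab1 was not analysed here, for the same reason as Hsf1.

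All 4 listed co-chaperones of Hsp90 were measured. Ahsa1, whose product speeds the ATPase cycle of Hsp90, was at 8.81, 8.66 and 8.77 in the controls and at 8.93, 8.95 and 8.86 with JG-98. Every JG-98 value was above every control value. The difference was 0.17 ± 0.072, or 1.12-fold, with a 95% interval of -0.0014 to 0.34 (limma adjusted p = 0.61). It was 0.20 without JG-98 replicate 3, and its adjusted p lay between 0.21 and 0.91 over all settings tried.

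Stip1, also called HOP, hands client proteins from Hsp70 to Hsp90. Its values were 8.27, 8.21 and 8.39 in the controls and 8.44, 8.48 and 8.33 with JG-98. The groups overlapped through control replicate 3 and JG-98 replicate 3. The difference was 0.12 ± 0.079 (limma adjusted p = 0.75), and 0.16 without JG-98 replicate 3.

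Fkbp4, the immunophilin FKBP52 of steroid receptor complexes, was at 7.84, 7.81 and 7.86 in the controls and at 7.896, 7.895 and 7.997 with JG-98. The groups did not overlap, and JG-98 replicate 3 was the highest array. The difference was 0.09 ± 0.065 (limma adjusted p = 0.77), and 0.06 without that array.

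Chordc1, also called morgana, encodes a CHORD-domain protein that binds Hsp90, and it is the gene with the unbroken run of heat shock units printed above. It was at 7.63, 7.59 and 7.62 in the controls and at 7.71, 7.76 and 7.41 with JG-98. As for Hsf2, replicates 1 and 2 were above every control and replicate 3 below every control. The difference was 0.01 ± 0.10 (limma adjusted p = 0.99), -0.0090 after median centring, and 0.12 ± 0.062 without JG-98 replicate 3, with a 95% interval of -0.04 to 0.27.

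**Figure D2:**
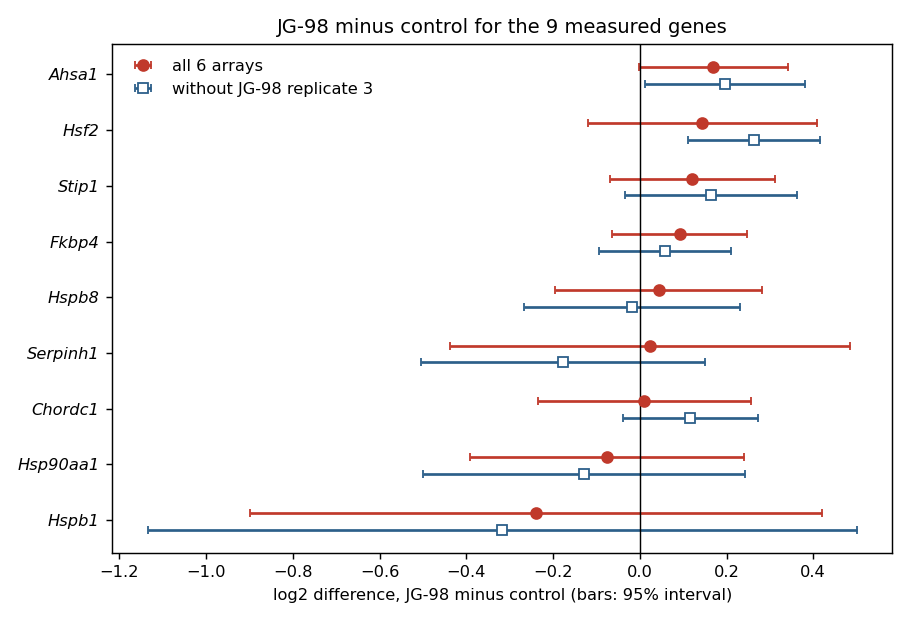
Log2 difference, JG-98 minus control, with its 95% interval from limma for the 9 measured genes, over all 6 arrays (red circles) and without JG-98 replicate 3 (open blue squares). With all arrays every interval includes 0, and without that array those of Hsf2 and Ahsa1 do not, although neither passed after adjustment over all genes.

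In the wider list of 24 measured Hsp90 co-chaperones, 0 rose and 0 fell over all genes (limma). At an unadjusted p under 0.05, 1 was higher and 1 lower, beside 8.32% of all probe sets. The median difference was 0.02, or -0.0024 after median centring of the arrays and 0.06 without JG-98 replicate 3. Pih1d1, a subunit of the R2TP complex that assembles large protein complexes with Hsp90, was at 7.94, 8.03 and 8.03 in the controls and at 7.73, 7.83 and 7.72 with JG-98. The groups did not overlap, with a difference of -0.24 ± 0.068 (limma adjusted p = 0.42). Itgb1bp2, the CHORD-domain relative of Chordc1 known as melusin and best known from muscle, was at 4.25, 4.52 and 4.37 in the controls and at 4.66, 4.61 and 4.87 with JG-98. Its groups did not overlap either, with a difference of 0.33 ± 0.10 (limma adjusted p = 0.48), and 0.26 without JG-98 replicate 3, its highest array. Muscle markers, 6 of 6 measured, had means of 3.45 to 3.54 in the controls and 3.41 to 3.71 with JG-98. Single muscle markers had means of 2.71 to 4.78 over all arrays, beside 1.72 to 4.07 for the 22 markers of other blood cells. The part of muscle transcripts in the Itgb1bp2 value was not tested.

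Hspb1 and Hspb8 encode small heat shock proteins, which hold unfolded proteins without using ATP until Hsp70 can refold them. Hspb1, the mouse Hsp25, was at 2.82, 1.98 and 3.08 in the controls and at 2.20, 2.41 and 2.54 with JG-98. The controls alone spanned the whole JG-98 range. The difference was -0.24 ± 0.28, with a 95% interval of -0.90 to 0.42 (limma adjusted p = 0.87). It was -0.56 without control replicate 2, -0.014 without control replicate 3 and -0.32 without JG-98 replicate 3. Hspb8, which works with Bag3 in chaperone-assisted autophagy, was at 2.66, 2.61 and 2.62 in the controls and at 2.47, 2.75 and 2.79 with JG-98. The JG-98 values lay on either side of the controls, with a difference of 0.04 ± 0.099 (limma adjusted p = 0.94), and -0.02 without JG-98 replicate 3. Both genes lay within the range of the 22 markers of other blood cells named above, where a change could be compressed or hidden by background.

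Of 11 measured small heat shock protein genes, 0 rose and 0 fell over all genes (limma). The median difference was -0.04, and above 0 without JG-98 replicate 1 (0.04), control replicate 3 (0.02) or control replicate 1 (0.0064). The lowest difference in the list was that of Hspb6, the small heat shock protein Hsp20. Hspb6 was at 7.47, 7.50 and 7.45 in the controls and at 7.14, 7.25 and 7.21 with JG-98, so every JG-98 value was below every control. The difference was -0.28 ± 0.064, with a 95% interval of -0.43 to -0.12 and an unadjusted p of 0.0041, but it did not pass over all genes (limma adjusted p = 0.36). Without JG-98 replicate 3 the difference was also -0.28. Hspb11, an intraflagellar transport protein placed in this family by name, differed by 0.28 ± 0.15 (0.42 when JG-98 replicate 3 was left out). Cryab, the alpha-B crystallin gene, differed by -0.22 ± 0.14 (-0.34 without JG-98 replicate 1).

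The autophagy partners of Hspb8 were 6 measured genes, none of which passed. Sqstm1, the autophagy receptor p62, was at 10.5, 10.5 and 10.6 in the controls and at 10.7, 10.8 and 10.7 with JG-98. Its groups did not overlap, and the difference was 0.22 ± 0.064 (limma adjusted p = 0.44). With an intensity trend in the variance prior Sqstm1 passed (limma adjusted p = 0.021). Bag3 differed by -0.06 ± 0.074.

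Serpinh1 encodes Hsp47, the chaperone of collagen in the endoplasmic reticulum. It was at 3.58, 3.84 and 3.96 in the controls and at 3.52, 3.71 and 4.22 with JG-98. JG-98 replicate 3 was the highest array and JG-98 replicate 1 the lowest. The difference was 0.02 ± 0.19 (limma adjusted p = 0.99), and -0.18 ± 0.13 without JG-98 replicate 3. The mean of 14 of 14 measured stromal markers was 3.42 to 3.47 in the controls and 3.38 to 3.71 with JG-98. Like the other lists for other cell types, it was highest on JG-98 replicate 3. Single stromal markers had means of 1.58 to 5.74 over all arrays, beside 1.72 to 4.07 for the 22 markers of other blood cells. Col1a1 was at 5.10 on that array against 4.23 to 4.79 on the others. The part of stromal transcripts in the Serpinh1 values was not tested. Among 13 measured genes of collagen folding and secretion, 11 had differences above 0, beside 12670 of all 25206 probe sets. After median centring 10 of the 13 did so. Their median difference was 0.06, and none passed. The collagen prolyl hydroxylase gene P4ha2 differed by 0.26 ± 0.11, or 0.35 ± 0.10 without JG-98 replicate 3 (limma adjusted p = 0.37), and P4hb, the disulfide isomerase that is its partner subunit, by 0.09 ± 0.068.

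Other genes of the heat shock response, 17 measured, had 15 differences above 0, beside 12670 of all 25206 probe sets. The 15 became 14 after median centring or without JG-98 replicate 3. The median was 0.11 (0.09 and 0.14). Of the 17, 0 passed (limma) and 1 had an unadjusted p under 0.05, beside 8.32% of all probe sets. That gene was Hspd1, the mitochondrial chaperonin Hsp60, at 8.36, 8.24 and 8.32 in the controls and at 8.65, 8.64 and 8.44 with JG-98. The groups did not overlap, and the difference was 0.27 ± 0.083 (limma adjusted p = 0.48). Without JG-98 replicate 3 the Hspd1 difference was 0.34 ± 0.068 (limma adjusted p = 0.30). Cct2, a subunit of the cytosolic chaperonin, differed by 0.19 ± 0.083. The cytosolic Hsp70 genes Hspa8, Hspa1a and Hspa1b, whose products JG-98 binds, differed by 0.0072 ± 0.076 (-0.012 after median centring), 0.31 ± 0.32 and 0.13 ± 0.33. Without JG-98 replicate 3 these were 0.05, 0.57 and 0.11, and the Hspa1b value was -0.28 without control replicate 1. The last pair are near-identical copies that can share probes. Group means were 3.45 (control) and 3.76 (JG-98) for Hspa1a, and 3.25 and 3.38 for Hspa1b. These lay within the range of the 22 markers of other blood cells, 1.72 to 4.07, where background could compress or hide a change.

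Hsp90 clients of macrophages, 11 measured, had a median of -0.02, or 0.0065 without JG-98 replicate 3, and none passed. Ahr, the aryl hydrocarbon receptor, which Hsp90 keeps in the cytosol, was at 5.53, 5.58 and 5.58 in the controls and at 5.40, 5.35 and 5.10 with JG-98. Every JG-98 value was below every control, with a difference of -0.28 ± 0.093 (limma adjusted p = 0.51), and -0.19 without JG-98 replicate 3. Ikbkg, the NF-kB regulator NEMO, differed by 0.22 ± 0.10 (0.14 without JG-98 replicate 3). Counted once each, 87 genes of the 8 lists were measured, and 0 passed over all genes in either direction (limma), with 6 at an unadjusted p under 0.05, 3 higher and 3 lower, beside 8.32% of all probe sets. JG-98 lay wholly above control in 10 of the 87, beside 7.12% of all probe sets, and wholly below in 6, beside 8.44%. Without JG-98 replicate 3, 0 passed, 8 were higher and 3 lower at an unadjusted p under 0.05, beside 11.3%, and JG-98 lay wholly above in 27, beside 13.7%, and wholly below in 8, beside 16.7%. The median difference of the 87 genes was 0.04, and 0.06 without that array.

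**Figure D3:**
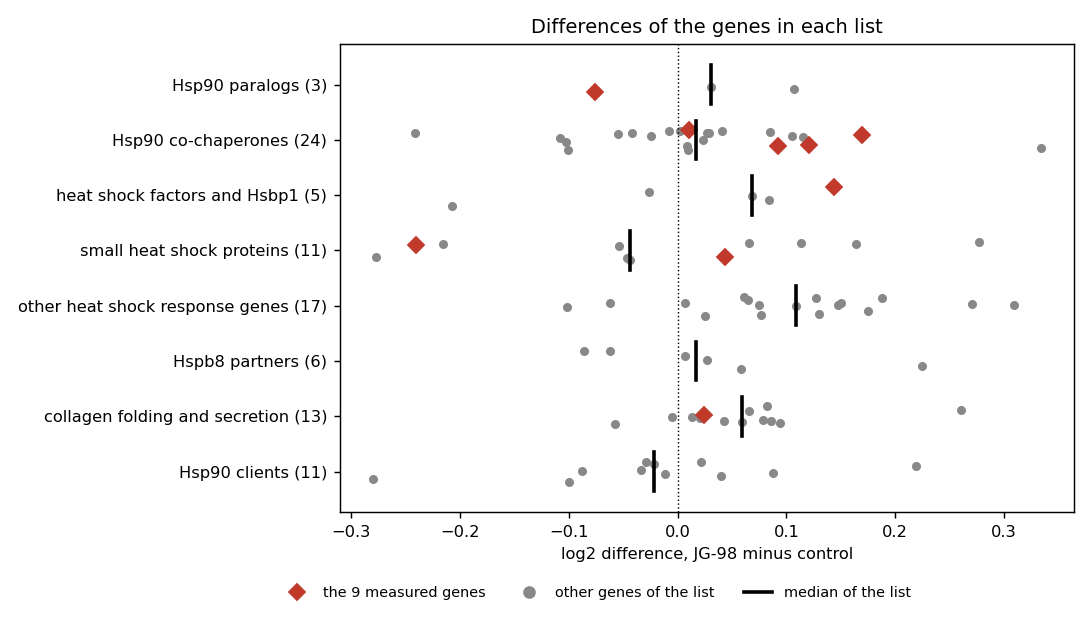
Log2 difference, JG-98 minus control, of every measured gene in 8 lists, with the number of genes in brackets; red diamonds are the measured genes described first, grey points the other genes, and black bars the medians. Medians run from -0.04 for small heat shock proteins to 0.11 for other heat shock response genes, and no gene passed over all genes.

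The genes whose values followed Ahsa1 most closely over the 6 arrays were Anxa3 (Pearson r = 0.992), Rbms1 (r = 0.991) and Dnaja3 (r = 0.989). Their differences were 0.11 ± 0.063, 0.10 ± 0.061 and 0.26 ± 0.087, and none passed (limma adjusted p = 0.71, 0.74 and 0.52). These 3 were picked as the highest, and an r over 6 arrays is imprecise. In all, 340 named genes had an r over 0.9 with Ahsa1, among 23185 probe sets with a symbol. The part of the shared normalization in these values was not tested.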

How the data were processed

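The values deposited by the authors are on a log2 scale, with RMA, affy and R 2.15.1 named in the submitters' processing notes in no stated role. RMA generally quantile-normalizes arrays, which removes shifts shared by all genes, and compresses differences of dim probe sets. No detection call was used. The genome build is not given in these sources. Probe sets are named by Entrez gene number, and of 25206 the platform annotation pairs 23185 with 1 symbol, 0 with several and 2021 with none. Symbols were updated through a RefSeq table of GRCm38.p6. Differences were fitted across all genes with limma 3.58.1 under R 4.3.3 (two-sided, eBayes after lmFit, 2.59 prior and 4 residual degrees of freedom), with Benjamini-Hochberg adjustment over all probe sets, and checked on simulated data. The p-values rest on the spread between these samples alone, and that spread may be technical, while the number of arrays limits the precision. The genes described and the 8 lists were chosen with earlier results of these data known. Named are the 10 listed genes, the 2 others of each list with the smallest p, and 9 set genes. The set genes are Hsp90ab1, Hsp90b1, Trap1, Hspa8, Hspa1a, Hspa1b, Bag3, Cryab and Hsbp1. Of these, Hsf1 and Hsp90ab1 are named without values. Also named are the 3 genes most correlated with the listed gene of smallest p. Col1a1 was chosen after its values were seen. Alternatives were median centring, 2 filters on dim probe sets, further quantile normalization, a trend or robust prior, array weights (statmod 1.5.0), the replicate number as a block and leaving out each array.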

Additional observations from a re-analysis of the deposited data

How the results depend on the processing

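None of the 9 measured genes passed over all genes under any of the 14 other settings, although the filters on dim probe sets tested only 7 and 6 of them. Over all probe sets the count of 10 became 25 with array weights, 254 with an intensity trend, 90 above the median level and 0 to 5 without any one array. With the replicate block it was 0 (smallest limma adjusted p = 0.22, and 1855 probe sets with an unadjusted p under 0.05). No pairing by replicate number was seen: deviations of same-numbered arrays correlated at 0.095, -0.13 and 0.10, and 2 of 6 arrays correlated best with their own number. With 3 arrays per group this cannot decide whether the numbers pair the arrays. Of the genes in the lists, 1 passed with an intensity trend, Sqstm1. Of 30 genes recomputed, 8 changed sign in some setting, among them Hspa1a and Hspa1b, at 0.31 and 0.13 with all arrays. With array weights the differences were -0.056 for Hspb8, -0.18 for Serpinh1 and 0.0022 for Hsbp1, and after median centring -0.0090 for Chordc1 and -0.012 for Hspa8. Leaving out 1 array at a time gave -0.15 to 0.066 for Hsp90aa1, -0.017 to 0.14 for Hspb8, -0.18 to 0.17 for Serpinh1, -0.055 to 0.12 for Chordc1, -0.050 to 0.054 for Hspa8, -0.018 to 0.57 for Hspa1a, -0.28 to 0.39 for Hspa1b and -0.048 to 0.0098 for Hsbp1. The cause of these changes was not tested. The other 393 of 411 recomputed gene differences kept their direction and side of the threshold. The priors, filters and replicate block leave a difference as it is, so no direction could change there. No named gene passed in the main fit, so a side could change only by a new pass. Of 112 list medians, 0 moved by more than 1 SD between replicates. Leaving out 1 array can hardly move a median that far, so this count says little about stability. Some medians changed sign, such as that of Hsp90 co-chaperones, 0.017 with all arrays and -0.011 without JG-98 replicate 2. The planned comparison of Hsp90aa1 with Hsp90ab1 was not run, because the annotation used for naming pairs no probe set with the symbol Hsp90ab1. Dim probe sets, among them Hspb1, Hspb8, Serpinh1, Hspa1a, Hspa1b and Hsf5, limit what these arrays can show, and background is not excluded for Hsp90aa1.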
